A study of Homo sapiens with 16 samples.

Results

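The replication-dependent histone genes of the HIST1 cluster lie on chromosome 6 and were taken as 3 intervals of hg19: chr6:26017000-26286000, chr6:27093000-27125000 and chr6:27775000-27866000, 392 kb in all. Peaks that overlapped an interval by at least 1 bp were its members. These were 127 of the 257557 peaks of the series: 42 of 87911 in the control RNA polymerase II (Pol II) list, 45 of 85990 in the list after 30 min of merbarone, 40 of 81816 in the list after 1 h, and 0 of 1840 in the list of DNA topoisomerase II alpha (TOP2A). The comparison was with the rest of a 4 Mb window, chr6:25000000-29000000, which held 114, 103 and 113 Pol II peaks.

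Chromatin came from wild-type hTERT RPE-1, a telomerase-immortalised human cell line from the retinal pigment epithelium, held for 48 h in 0.1% serum in every group. Pol II was precipitated with an antibody to the N-terminal part of its largest subunit, RPB1. The control list stands for 3 libraries of cells given vehicle (DMSO) for 30 min and 3 libraries of untreated cells, and the drug lists for 3 libraries after 30 min and 2 after 1 h of merbarone at 200 uM, a catalytic inhibitor of topoisomerase II. TOP2A was mapped in 2 untreated libraries, and 3 IgG libraries were not analysed here. No vehicle library matched the 1 h time. Each condition had 1 list of intervals with no height or score, so replicate spread and read depth are unknown, and every comparison is between lists and has no test.

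Replication-dependent histone genes make the core histones H2A, H2B, H3 and H4 and the linker histone H1 that package newly copied DNA. They are short and without introns in their main form, their mRNAs end in a stem-loop in place of a poly(A) tail, and they are transcribed mostly in S phase, when the coactivator NPAT is phosphorylated by cyclin E and CDK2. Clustered copies gather in a nuclear body, the histone locus body. Cells in low serum mostly leave the cycle before S phase. Of the 50 genes listed for the cluster, all were matched by their older symbols to a RefSeq gene, and 45 were under 1 kb, with a median length of 491 bp over the 50. Among them, HIST1H1T encodes the linker histone of testis. The RefSeq table is of GRCh38, so no peak was tied to a gene, and sites are given by their hg19 position.

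The promoters show what the genes of a type share. The last 150 bases before the RefSeq start (GRCh38.p14, chromosome 6, 5′ to 3′ in the direction of transcription) are printed for the first listed gene of each type with an entry. Capitals mark, on either strand, 5 motifs that are named with their letters after the sequences. HIST1H1A (H1-1, minus strand) encodes a linker histone. HIST1H2AB (H2AC4, minus) and HIST1H2BB (H2BC3, minus) encode the pair of histones that form a dimer, and HIST1H3A (H3C1, plus) and HIST1H4B (H4C2, minus) the pair that form the inner tetramer.
HIST1H1A: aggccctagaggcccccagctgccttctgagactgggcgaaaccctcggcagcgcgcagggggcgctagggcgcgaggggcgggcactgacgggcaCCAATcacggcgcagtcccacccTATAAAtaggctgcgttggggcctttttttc
HIST1H2AB: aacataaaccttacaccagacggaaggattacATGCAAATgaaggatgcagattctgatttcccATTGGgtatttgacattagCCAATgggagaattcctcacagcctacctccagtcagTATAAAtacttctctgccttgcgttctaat
HIST1H2BB: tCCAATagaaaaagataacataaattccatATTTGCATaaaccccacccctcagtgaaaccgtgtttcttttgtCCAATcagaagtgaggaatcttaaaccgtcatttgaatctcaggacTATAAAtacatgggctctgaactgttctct
HIST1H3A: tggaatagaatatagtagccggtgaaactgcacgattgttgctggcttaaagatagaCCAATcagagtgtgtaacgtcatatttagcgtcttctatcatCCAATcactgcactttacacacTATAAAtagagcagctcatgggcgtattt
HIST1H4B: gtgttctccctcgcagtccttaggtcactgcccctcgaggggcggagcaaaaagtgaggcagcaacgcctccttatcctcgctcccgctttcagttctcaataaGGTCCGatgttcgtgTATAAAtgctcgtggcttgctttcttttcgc

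In these 5 stretches TATAAA, the core of the TATA box that places the start of transcription, began 29 to 31 bases before the start. Over the 250 bases before the start, 46 of the 50 genes had an entry. TATAAA was found in 31 of the 46 (67.4%), against 13.0% of 27305 RefSeq genes. Both shares count either strand and any place in the 250 bases, so a match need not be the gene's own TATA box. On the gene's own strand TATAAA was in the first listed window of 25 members. The match nearest the start began 27 to 189 bases before it, with a median of 31. CCAAT, a site of the factor NF-Y, was in 40 (87.0%), against 37.0% of all genes; it was in all H1, H2A, H2B and H3 promoters with an entry and in 2 of 8 H4 promoters. The octamer ATTTGCAT, bound by OCT1, was in 11 of 14 H2B and 8 of 10 H2A promoters, against 2.03% of all genes. H2A and H2B genes often face away from each other, and 8 such pairs shared 193 to 247 bases of their windows on opposite strands, so their motifs are not independent. AAACACA, the H1 box, was in 6 of 6 H1 promoters, against 5.95% of all genes, and in HIST1H1A it lay upstream of the stretch printed. GGTCCG, part of the H4 element bound by HINFP, was in 8 of 8 H4 promoters, against 11.3% of all genes. A match of letters is no measure of binding.

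Some copies are nearly the same. HIST1H4J (H4C11, plus strand) and HIST1H4K (H4C12, minus strand) were identical at 245 of 250 bases before the start (98.0%), and the median over 1035 pairs of members was 27.2%. Their last 150 bases are shown because short reads from such copies are hard to place.
HIST1H4J: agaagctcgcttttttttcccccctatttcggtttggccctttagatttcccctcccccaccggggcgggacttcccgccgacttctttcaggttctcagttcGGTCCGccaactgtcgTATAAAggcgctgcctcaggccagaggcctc
HIST1H4K: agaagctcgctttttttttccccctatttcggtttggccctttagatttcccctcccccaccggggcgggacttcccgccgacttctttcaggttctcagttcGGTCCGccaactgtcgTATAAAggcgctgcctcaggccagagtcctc

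The sources used here do not say how reads with more than 1 place were counted. HIST1H2AI and HIST1H2AJ were identical at 205 of 250 bases (82.0%), and HIST1H3D has a RefSeq start at that of HIST1H2AD, with the same 250 bases.

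Pol II was dense on the cluster in every list. Control peaks covered 56.9 kb, or 14.5%, of the intervals and 1.51% of the rest of the 4 Mb window, so cover per kb was 9.59 times as high inside. The ratio was 9.99 at 30 min and 8.55 at 1 h. The intervals made up 9.80% of the window's length. They held 51.0% of its Pol II cover in control, 52.1% after 30 min and 48.2% after 1 h. The rest of chromosome 6 was covered over 1.16% in control and the other chromosomes over 1.48%. Thus 145 bp per kb of the cluster lay under control peaks, against 15.1 in the rest of the window.

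**Figure D1:**
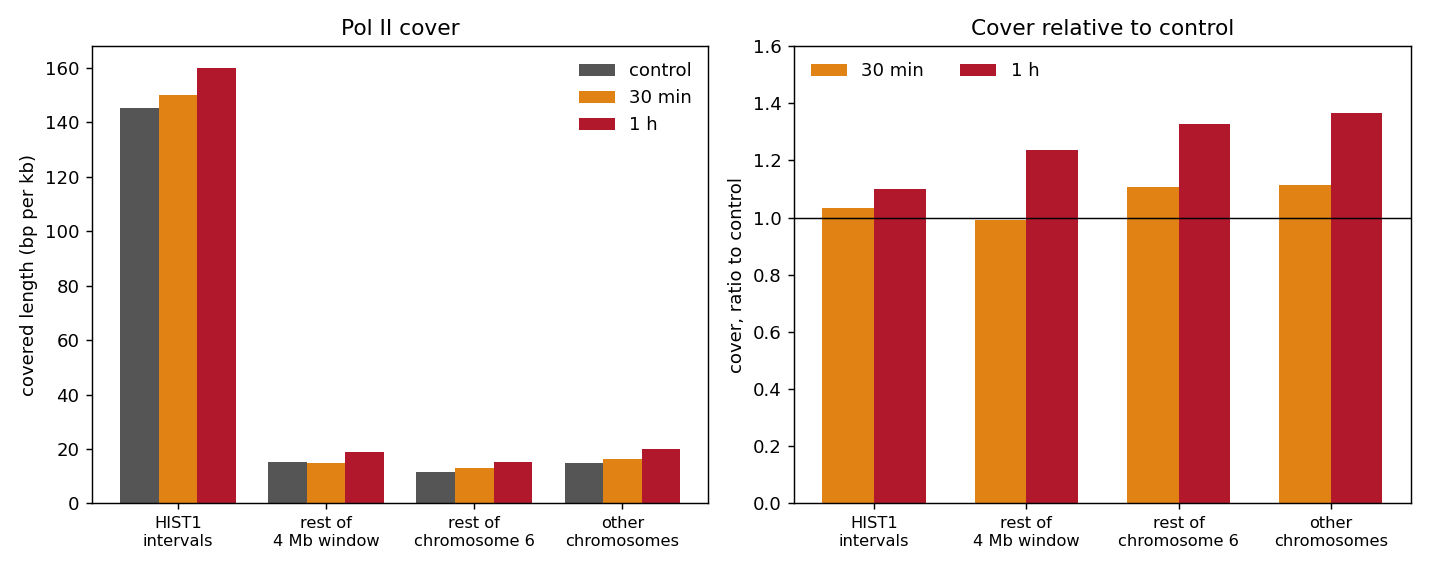
Left, length under Pol II peaks in bp per kb in the HIST1 intervals, the rest of the 4 Mb window, the rest of chromosome 6 and the other chromosomes, with 1 bar for each pooled list. Right, covered length as a ratio to control: the intervals stand at 1.03 at 30 min and 1.10 at 1 h, and the other chromosomes at 1.12 and 1.36.

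The 3 intervals were alike in this. In control the first was covered over 13.1% of its 269 kb by 24 peaks, the second over 17.8% of its 32 kb by 4 peaks, and the third over 17.6% of its 91.0 kb by 14 peaks. At 30 min the shares were 13.4%, 21.5% and 17.5%. At 1 h they were 14.4%, 20.9% and 19.0%. Within each interval the 3 lists lay within 4 percentage points of each other.

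Both more peaks and wider peaks made up this density. Peaks numbered 10.7 per 100 kb inside and 3.16 in the rest of the window in control. The median width was 1249.5 bp inside (95% interval from order statistics, 653 to 1502, counting only) and 311 bp (260 to 383) outside. At 30 min the medians were 1189 bp (550 to 1571) and 393 bp (309 to 528), and at 1 h 1375 bp (822 to 2018) and 431 bp (333 to 537). In each list 23 of the cluster's peaks were at least 1 kb wide, which is 54.8% in control, 51.1% after 30 min and 57.5% after 1 h. In the rest of the window 8.77%, 6.80% and 16.8% were that wide. The median width inside thus stood at 4.02, 3.03 and 3.19 times that outside.

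**Figure D2:**
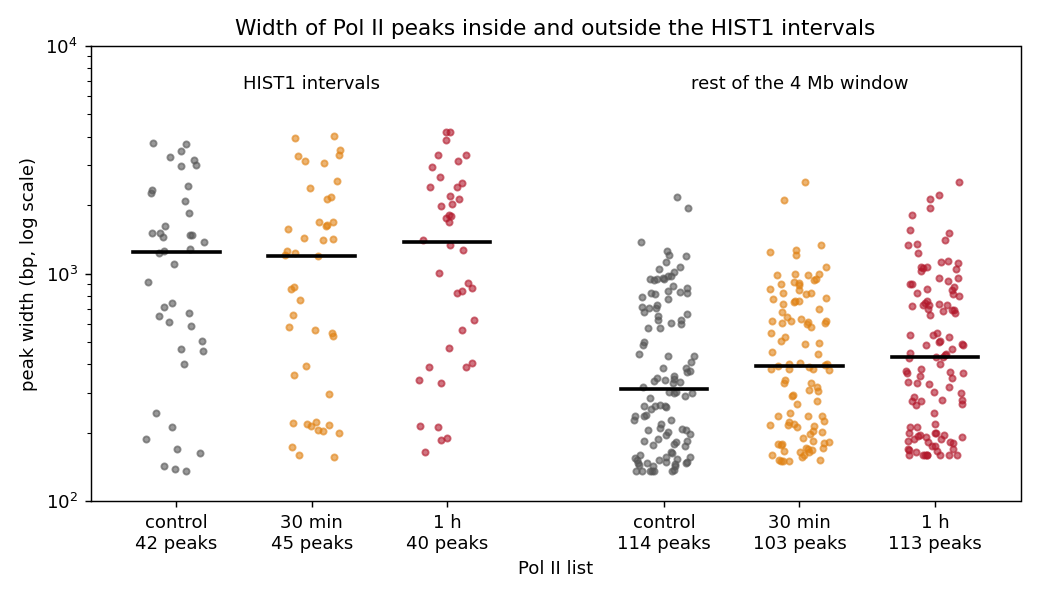
Width of each Pol II peak in bp on a log axis, in the HIST1 intervals and in the rest of the 4 Mb window, by list; black lines are medians. The cluster's medians lie between 1189 and 1375 bp, and those outside between 311 and 431 bp.

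No peak on the cluster was very wide. The widest control peak, chr6:26122947-26126702, spanned 3756 bp, and the widest in the rest of the genome 30505 bp. Next in control came chr6:27859837-27863546 at 3710 bp, chr6:26043222-26046668 at 3447 bp, chr6:26156156-26159417 at 3262 bp and chr6:26031030-26034175 at 3146 bp. At 30 min the same place led, with a peak of 4017 bp at chr6:26122757-26126773, followed by 3947 bp at chr6:27859637-27863583. The others of the 5 widest at 30 min were chr6:27098931-27102437 (3507 bp), chr6:27804505-27807838 (3334 bp) and chr6:26156172-26159444 (3273 bp). At 1 h the widest was chr6:26156162-26160359, at 4198 bp, where control had 3 pieces. It was followed by chr6:26122629-26126809 (4181 bp), chr6:27859722-27863601 (3880 bp), chr6:27804506-27807833 (3328 bp) and chr6:27098956-27102264 (3309 bp). The places of the 3 widest peaks at 1 h were thus among the 5 widest of each other list.

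The drug comparisons ask whether Pol II peaks in these intervals differed after merbarone. Sites were built for them by merging all Pol II peaks, whatever their list, that stood at most 500 bp apart. That gap is near the median length of 1 listed gene. Whether a site lay on a histone gene or on another gene inside an interval was not determined. The cluster held 31 sites, numbered along the chromosome: 20 in the first interval, 4 in the second and 7 in the third. Sites 20 and 25 crossed an interval's edge and were counted whole. A peak of all 3 lists was present at 25 of 31 sites (44.9% of the 50922 sites of the genome had one). The cluster's sites were longer, with a median of 2408 bp against 633 bp over the genome, which was not allowed for here. The 25 sites in all 3 lists had a median length of 2715 bp and held 57.7 kb under control peaks, against 0.163 kb at the others. The other 6 were under 500 bp, so no site of at least 500 bp was found in 1 list only.

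**Figure D3:**
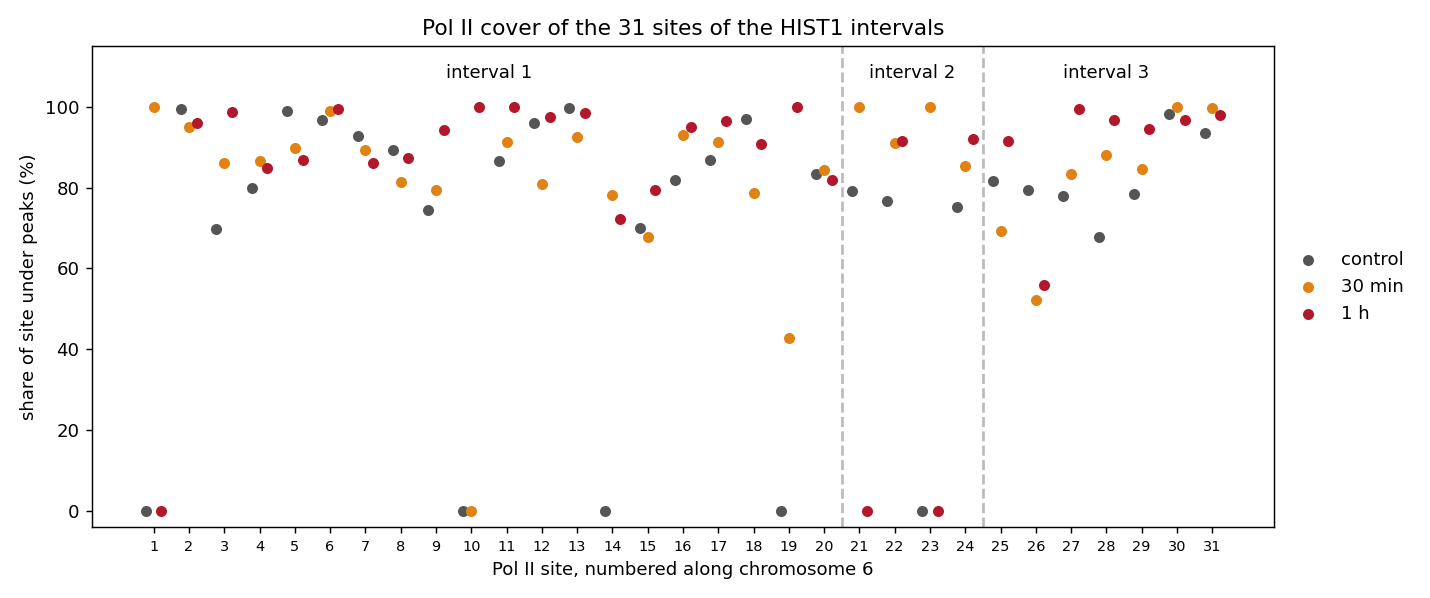
Share of each of the 31 sites under Pol II peaks, in percent, by list; dashed lines part the 3 intervals. The 25 sites with peaks in all lists stand above 50% in each, and points at 0% mark 6 short sites that 1 or 2 lists lack.

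Pol II cover of the whole cluster was slightly higher after merbarone. It was 56.9 kb in control, 58.8 kb after 30 min and 62.7 kb after 1 h, ratios to control of 1.03 and 1.10. In the rest of the window the ratios were 0.991 and 1.24, in the rest of chromosome 6 1.11 and 1.33, and on the other chromosomes 1.12 and 1.36. By interval the ratios at 1 h were 1.10, 1.17 and 1.08, and at 30 min 1.02, 1.2 and 0.999. All these ratios share the control list, and the difference between the cluster and other regions was not tested. The median site of the cluster was covered over 79.8% in control, against 35.9% of the median site of the genome.

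A site was counted as covered more or less where the share of its length under peaks differed from control by at least 10 percentage points. At 30 min 10 of 31 sites were covered more (32.3%, 95% Wilson interval for counting 18.6 to 49.9; 35.0% of all sites) and 4 less (12.9%, 5.13 to 28.9; 22.6%). At 1 h 12 were covered more (38.7%, 23.7 to 56.2; 56.3%) and 3 less (9.68%, 3.35 to 24.9; 19.4%). The share covered more at 30 min was thus near that of all sites. Among sites of at least 500 bp that were covered over at least 50% in control, 5 of 24 were covered more at 30 min (24.9% over the genome) and 9 of 24 at 1 h (37.5%, 21.2 to 57.3; 44.9%). In that class 3 of 24 were covered less at 30 min (12.5%, against 23.7% over the genome) and 2 of 24 at 1 h (8.33%, against 17.8%). The median change at 1 h was 7.22 points in the cluster and 7.71 over the genome in that class, and at 30 min 3.21 and 0.91. The nearest values on either side of the limit at 1 h were 13.0 and 9.97 points.

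The sites covered more were in all 3 intervals. Site 3, chr6:26025999-26028154, lay under peaks over 69.7% of its length in control, 86.1% after 30 min and 98.7% after 1 h, when a single peak reached 333 bp further on the left and 294 bp further on the right than in control. Site 28, chr6:27798186-27799051, went from 67.8% to 88.1% and 96.7%. Among sites of at least 500 bp, these had the 2 largest differences in this direction at each time. Without peaks under 300 bp the difference at site 28 at 30 min turned to -4.27 points, where its cover was in 2 pieces.

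Site 22, chr6:27098585-27102437, lay under peaks over 76.8% of its length in control, 91.0% after 30 min and 91.4% after 1 h. Site 24, chr6:27112552-27115993, had 75.2%, 85.3% and 92.0%. Site 16, chr6:26204383-26206916, had 81.9%, 92.9% and 94.9%. These 3 were already covered more at 30 min, and at sites 16, 24 and 3 that difference was under 10 points without peaks under 300 bp (2.21, 1.51 and 6.35), as was that of site 22 at 1 h (9.08).

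A further pair differed mainly at 1 h. Site 9, chr6:26122629-26127680, the longest at 5052 bp, lay under peaks over 74.3% of its length in control, 79.5% after 30 min and 94.2% after 1 h. At 1 h its right end lay 978 bp beyond that of control, the largest shift of any end, and 1004 bp were added in all. Peaks absent from control made up part of this, at chr6:26126924-26127312 and chr6:26127491-26127680. Site 27, chr6:27792143-27793057, had 78.0%, 83.3% and 99.3%.

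Fewer sites were covered less. Site 26, chr6:27781493-27783623, lay under peaks over 79.5% of its length in control, 52.3% after 30 min and 56.0% after 1 h, the largest deficit at both times among sites of at least 500 bp. In control it held 4 peaks, and the outer ones, chr6:27781493-27781628 and chr6:27783222-27783623, had no partner in either drug list. The right end of the site lay 490 bp further in at 30 min and 449 bp at 1 h. Site 5, chr6:26043222-26046707, had 98.9%, 89.8% and 86.8%, with its left end 357 and 316 bp further in.

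Site 18, chr6:26223651-26226562, lay under peaks over 97.0% of its length in control, 78.6% after 30 min and 90.8% after 1 h. Site 25, chr6:27774489-27779033, had 81.5%, 69.2% and 91.5%, so it stood below control at 30 min and 9.97 points above it at 1 h. Site 8, chr6:26103479-26105405, had 89.3%, 81.4% and 87.2%. Site 7, chr6:26087450-26088404, had 92.7%, 89.2% and 86.1%, and site 2, chr6:26020503-26022781, 99.3%, 95% and 96.0%; sites 8, 7 and 2 differed by under 10 points at either time. The direction at sites 7, 8 and 18 turned with the processing, at sites 8 and 18 only at 1 h. With limits made alike, or without peaks under 300 bp, site 7 was instead covered more, by 11.1 points at 30 min and 7.96 at 1 h. Without peaks under 300 bp, site 8 was covered more by 10.5 points at 1 h, and site 18 by 0.24 points. At 30 min sites 8 and 18 stayed below control in that setting, at -3.58 and -12.0 points.

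**Figure D4:**
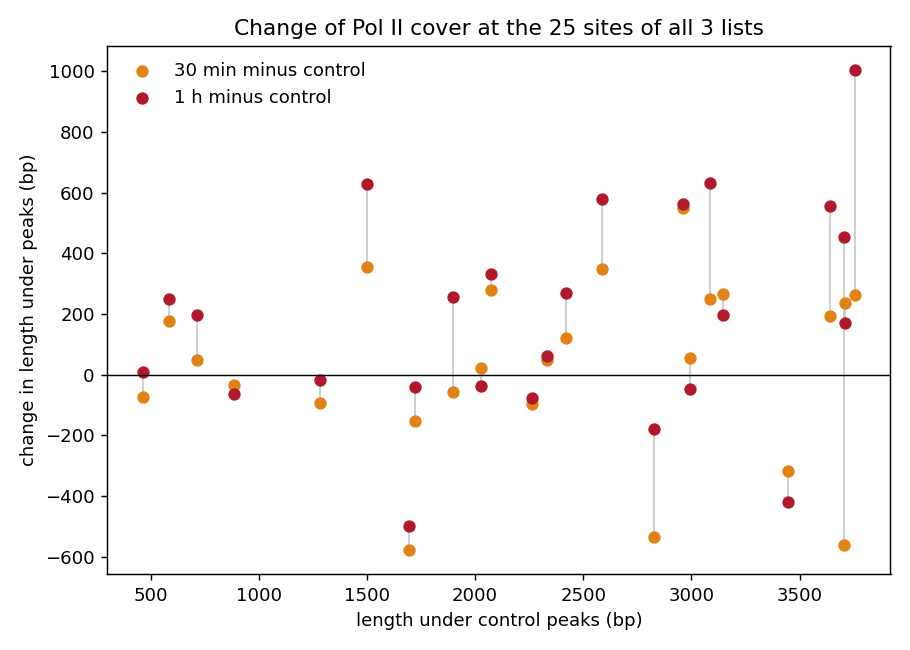
Change in length under Pol II peaks against control, in bp, at the 25 sites with peaks in all 3 lists, plotted against the length under control peaks; grey lines join the 2 times of a site. At 1 h the values run from -500 to 1004 bp, with 16 sites above 0 and 9 below. The same count was not made over the genome.

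Over the 25 sites in all 3 lists, 13 were covered over more bases than in control at both times and 7 over fewer at both. Neither these counts nor those of ends below were made over the sites of the genome, so they do not set the cluster apart. Cover there summed to 57.7 kb in control, 58.4 kb after 30 min and 62.5 kb after 1 h. Of the 50 ends at 1 h, 26 lay outside those of control, 23 inside and 1 at the same base, with a median shift of 5.5 bp outward and 24 within 100 bp. At 30 min 29 lay outside and 21 inside, with a median of 27 bp outward and 28 within 100 bp. The shifts at 1 h summed to 4622 bp outward, while gaps inside sites summed to 2150 bp, near the 2293 bp of control. At 30 min they summed to 2047 bp outward and gaps to 3635 bp. The number of sites made of a single peak was 15 in control, 13 after 30 min and 15 after 1 h. Since the direction of the genes on hg19 was not used here, left and right ends cannot be called upstream or downstream.

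Peaks of the cluster mostly had partners in the other lists. Of 42 control peaks, 39 (92.9%, 81.0 to 97.5) overlapped a peak at 30 min and 38 (90.5%, 77.9 to 96.2) a peak at 1 h. Those without a partner were thus 7.14% and 9.52%, against 26.1% and 22.3% of all control peaks. In the other direction 9 of 45 peaks at 30 min (20%) and 9 of 40 at 1 h (22.5%) were absent from control, against 34.1% and 44.1% of all peaks of those lists. Peaks inside were wider than peaks elsewhere, which was not allowed for in these shares.

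Without a control partner, the 9 peaks at 30 min were 156 to 358 bp wide and the 9 at 1 h 165 to 403 bp. Over 1 kb from any control peak lay 4 of the 9 at 30 min, at 1673 to 2466 bp, and 3 of the 9 at 1 h, at 1546 to 3903 bp. Those farthest lay 2466 bp away at 30 min (chr6:26017849-26018052, site 1) and 3903 bp away at 1 h (chr6:26130606-26130770, site 10). Sites 14 and 19 held peaks at both drug times and none in control, at chr6:26195478-26195935 and chr6:26228082-26228484; site 19 was covered over 173 bp at 30 min and 403 bp at 1 h. Of the control peaks without a partner, the one at chr6:27094990-27095152 (site 21, 163 bp) lay 3432 bp from the nearest peak at 1 h, and the other distances were 2 to 88 bp.

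TOP2A was compared to ask whether the enzyme was found in these intervals before the drug. None of its 1840 peaks overlapped the intervals, and 86 lay on chromosome 6. The rest of chromosome 6 held 0.0505 TOP2A peaks per 100 kb, and at that rate most stretches of 392 kb would hold none. The only TOP2A peak of the 4 Mb window, chr6:25257799-25257871, was 73 bp wide and 759 kb from the first interval, and the nearest control Pol II peak was 21100 bp from it. Of the 42 control Pol II peaks of the cluster, 0 held TOP2A, which allows a share of up to 7.14%, and 1.35% of all control peaks held one. Wide Pol II peaks held TOP2A more often: of 9887 control peaks of 1 to 4 kb, 696 did (7.04%, 6.55 to 7.56). The cluster's 23 peaks of that width, 49.5 kb in all, held 0, which allows up to 13.0%. That limit lies above the share over the genome, so a TOP2A share below that of like peaks was not detectable. Both limits, 7.14% and 13.0%, take 3 peaks as the most that a count of 0 allows. They are not Wilson intervals and cover counting only.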

How the data were processed

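The authors deposited 4 lists of peaks, each the start and end of intervals in bp on hg19, with no score. Bowtie 1.2.0, MACS2 and deepTools 2.4.1 are named, per the submitters' processing notes. Nothing in the sources used here gives the threshold for a peak, the library taken as background or the way libraries were pooled. The narrowest peaks of control, 30 min and 1 h spanned 136, 150 and 159 bp, and the closest stood 1, 1 and 38 bp apart, so the lists had unlike limits.

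Cover was clipped to the intervals, and widths are of whole peaks. Positions are counted from 1. For chromosomes, length ran from the first to the last Pol II peak. Alike limits joined peaks up to 37 bp apart and left out those under 159 bp. Sites named are those with the 5 highest and the 5 lowest changes per time among sites of at least 500 bp, and peaks named are the 5 widest per list, those without a partner and those of TOP2A; sites 1, 10, 14, 19 and 21, each under 500 bp, were named after their values were seen. A fixed list of cofactor genes was not used, as no hg19 annotation was at hand. The pair HIST1H4J and HIST1H4K and the motifs were chosen after the sequences were seen. The members and lists were chosen with earlier results of these data known. All 6 checks of the interval functions on simulated data gave the planted or bedtools 2.31.1 values. Work used Python 3.11.15, numpy 2.4.6, pandas 2.3.3, scipy 1.17.1 and matplotlib 3.10.9.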

Additional observations from a re-analysis of the deposited data

How the results depend on the processing

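Alternatives gave 177 values over 23 results. Of these, 141 stayed within 1.5 times the reported value (for shares and medians, within its interval) and 36 did not. Under these alternatives no ratio of cover in the cluster to control crossed 1. The lowest at 30 min was 1.01, without the second interval or without peaks under 300 bp. No alternative took an interval alone, and the third alone stood at 0.999 at 30 min. A limit of 1.5 times is wide for such ratios, so staying within it says little about their small differences from 1. With alike limits the ratios of cover to control were 1.03 and 1.10 in the cluster and 1.02 and 1.29 in the rest of the window, and the number of peaks was 34, 40 and 40. No paired analysis was possible because each list pools all libraries of its condition, and for the same reason no replicate could be left out.

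With alike limits the median control width was 1544 bp, and the control peaks with a partner were 100% at 30 min and 97.1% at 1 h. With peaks within 1 kb joined, control peaks numbered 26 and the medians were 2327.5, 2293 and 2399 bp. With only peaks of at least 300 bp, 93.9% of 30 min peaks had a control partner, 97.1% of control peaks had one at 1 h, and 4 sites were covered more at 30 min. A partner within 1 kb was found for 91.1% of 30 min peaks and 92.5% of 1 h peaks in control, and for 100% and 97.6% of control peaks at 30 min and 1 h.

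Without the first interval peaks numbered 18, 17 and 15, cover was 21.7, 22.8 and 23.9 kb, 5 sites were covered more and 2 less at 30 min, and 5 more at 1 h. Without the second, 6 sites were covered more at 30 min, and without the third 2 less; these have fewer sites by construction. With sites joined with no gap, 8 were covered less at 30 min and 20 more at 1 h. Joined across 5 kb, 1 was covered more and 1 less at 30 min, and 4 more and 1 less at 1 h. The joining changes the number of sites, so these counts cannot be set against those over 31 sites. At 20 points, 6 were covered more and 1 less at 30 min, and 6 more at 1 h. No genome share was taken for the counts with other joining, at 20 points or with only peaks of at least 300 bp. Among sites of at least 500 bp with a peak in control, or covered over at least 50% there, both chosen after seeing the data, 5 were covered more at 30 min. Site 28 turned to -4.27 points at 30 min with peaks of at least 300 bp. Depth is unknown, and its effect on each list was not tested.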
